A study of Bos taurus with 6 samples.

Results

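The 10 genes described here encode molecular chaperones of cattle muscle. They are the small heat shock protein genes HSPB1, HSPB6, HSPB7 and CRYAB, the HSP70 genes HSPA8 and HSPA5, the HSP90 genes HSP90AA1 and HSP90AB1, the J protein gene DNAJA1 and the mitochondrial chaperonin gene HSPD1. They were picked by gene name from the 18010 genes listed in the 6 transcript files, and all 10 were among the 9781 genes that were tested, those with a mean of at least 1 FPKM in a breed. Muscle RNA (longissimus dorsi) was sequenced from 3 Shandong black animals (B1 to B3) and 3 Luxi animals (L1 to L3), with 1 library for each. All were 18 months old. Shandong black cattle are a line bred from Japanese black, Luxi and Bohai black cattle, and Luxi cattle are a local Chinese beef breed that served as the dam line. The labels name no treatment, and the breeds came from different suppliers, so breed and origin cannot be told apart.

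Chaperones keep other proteins folded. Small heat shock proteins bind unfolding proteins without using ATP and hold them for refolding. HSP70 proteins, helped by J proteins that deliver clients and stimulate their ATPase, carry out the folding cycle, and HSP90 proteins finish the maturation of kinases, receptors and muscle myosin. Chaperonins are barrels that enclose a client while it folds, and HSPD1 is the barrel of the mitochondrion. Striated muscle is known for a large stock of small heat shock proteins on its Z-discs and intermediate filaments, where filamin and desmin are clients.

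A gene's level is given as FPKM, which scales the fragments of a transcript by its length and by the library's size and so allows levels to be compared between genes. Aligned sequence was between 14.08 and 14.62 gigabases in the Shandong black libraries and between 17.52 and 17.99 gigabases in the Luxi libraries. Annotated transcripts held between 65.3% and 73.9% of all FPKM, and the 2 libraries with the lowest share were L1 and B2. The 11 skeletal muscle markers all had values, and their summed FPKM was 26720 in L1 and between 45150 and 83070 in the other 5 animals. A gene was called when its adjusted p from limma, a linear model that shares variance information across genes, was under 0.05 and its log2 fold change was at least 1 in size. The median log2 fold change over all tested genes, Luxi over Shandong black, was 0.13, and 0.03 after scaling by size factors.

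CRYAB and HSPB1 were the most abundant of the 10 genes in every animal, and CRYAB showed the largest gap between the breeds. The summed FPKM of the 10 genes was 12094, 7699 and 11279 in Shandong black animals 1 to 3, and 2030, 4378 and 5592 in Luxi animals 1 to 3. The breeds did not overlap in this sum. Small heat shock genes made up 92.0% to 93.7% of it in Shandong black cattle and 74.1% to 87.3% in Luxi cattle, and CRYAB alone made up 54.7% to 56.3% and 24.3% to 35.4%. None of the 10 genes was called (0 of 10, where 2.57% of all tested genes were called). At an unadjusted limma p under 0.05 there were 3 of 10, CRYAB, HSP90AB1 and HSPD1, against 21.8% of all genes. All Luxi animals lay below all Shandong black animals for 4 of 10 genes, CRYAB, HSPB1, HSP90AA1 and HSP90AB1, where 9.13% of all tested genes did so. The opposite order was found for 0 of 10, against 20% of all genes. The fold change was below 0 for 8 of 10 genes, with a median log2 fold change of -0.71 beside 0.13 for all genes. With size factors the corresponding medians were -0.85 and 0.03.

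**Figure D1:**
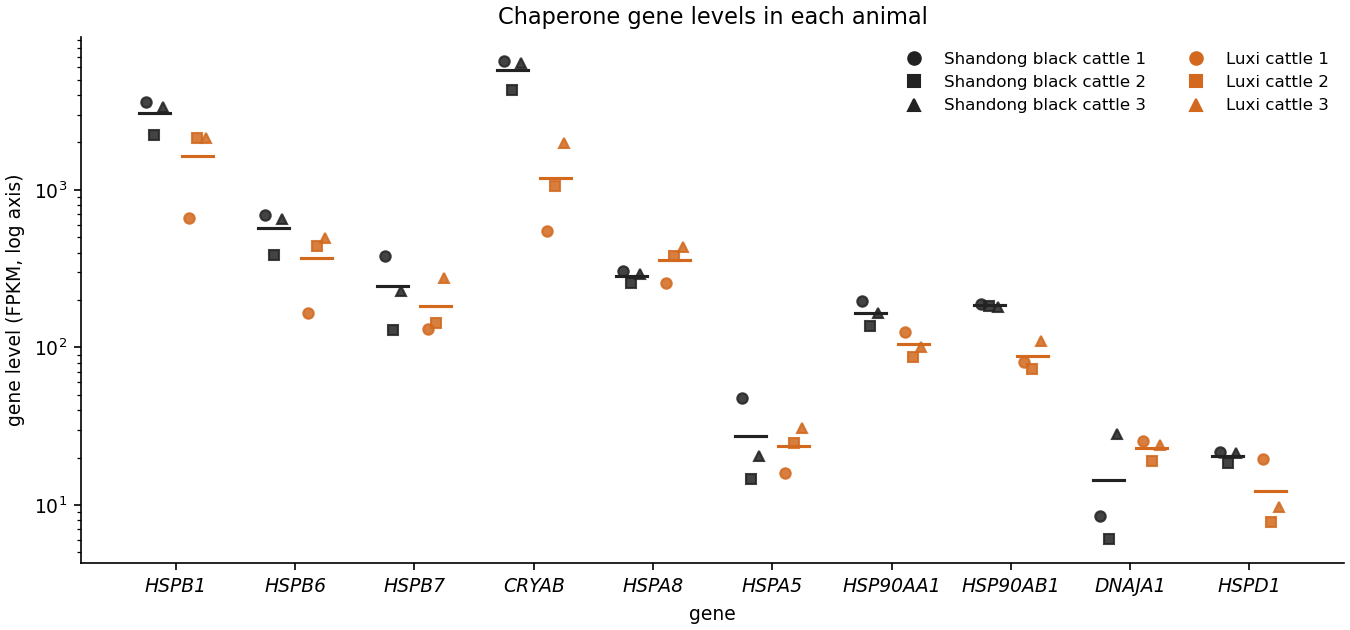
Level of each of the 10 chaperone genes (x axis) in FPKM on a log axis (y axis). Each point is 1 animal, with its replicate number shown by its shape, and the bars are the means of 3 animals. Levels run from 6613 FPKM for CRYAB in B1 to 6.09 FPKM for DNAJA1 in B2, and the breeds are fully separated for CRYAB, HSPB1, HSP90AA1 and HSP90AB1.

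CRYAB encodes alpha-B crystallin, a small heat shock protein that protects desmin filaments. The gene lies on chromosome 15 from 22242397 to 22245623, minus strand (assembly ARS-UCD1.2), with 1 annotated transcript. Its FPKM was 6613, 4326 and 6355 in Shandong black animals 1 to 3 and 551, 1062 and 1981 in Luxi animals 1 to 3. Every Luxi animal was below every Shandong black animal, and the means were 5765 ± 1253 and 1198 ± 725 (SD, n = 3 each), a 4.81-fold gap. CRYAB ranked between 6th and 37th of all genes in the 6 libraries. The log2 fold change was -2.43 (SE 0.57, 95% interval -3.76 to -1.10), with a limma adjusted p of 0.0706, which misses the threshold. Without L1, the animal with the lowest value, the log2 fold change was -1.97 and the limma adjusted p was 0.0443. It was also called when TPM was used (limma adjusted p = 0.0421), after quantile normalization (0.0363) and without a trend in the variance (0.0429). Over all alternatives the adjusted p ran from 0.0363 to 0.325, and the sign held in each.

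HSPB1, the gene of HSP27, lies on chromosome 25 from 34345286 to 34347010, plus strand. Its FPKM was 3631, 2242 and 3336 in the Shandong black animals and 660, 2139 and 2126 in the Luxi animals. The breeds did not overlap, but L2 and L3 lay just below B2, and L1 stood far below the other animals. For HSPB1 the log2 fold change was -1.06 (SE 0.58, 95% interval -2.42 to 0.30; limma adjusted p = 0.330). Without L1 it was -0.50. HSPB6, the gene of HSP20, lies on chromosome 18 from 46466909 to 46469475, minus strand. Its FPKM was 696, 384 and 649 in Shandong black cattle and 164, 440 and 498 in Luxi cattle, so the breeds overlapped. The log2 fold change was -0.75 (SE 0.51, 95% interval -1.95 to 0.45; limma adjusted p = 0.422), and without L1 it was -0.25. L1 was the lowest Luxi animal for all 4 small heat shock genes.

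The gap between the breeds was wider for CRYAB than for its small heat shock relatives in the same animals. The ratio of CRYAB to HSPB1 was 1.82, 1.93 and 1.90 in Shandong black animals and 0.835, 0.496 and 0.932 in Luxi animals. The ratio of CRYAB to HSPB6 was 9.51, 11.3 and 9.79 against 3.35, 2.41 and 3.98. CRYAB was thus the more abundant of the pair with HSPB1 in every Shandong black animal and the less abundant in every Luxi animal. The ratio of HSPB1 to HSPB6 was 5.22, 5.85 and 5.14 against 4.01, 4.86 and 4.27, again without overlap but with a smaller gap. These ratios were chosen after the values were seen and were not tested.

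HSPB2, a muscle small heat shock gene, is the head-to-head neighbour of CRYAB. It starts at 22246658 on the plus strand, with 1034 bases between the annotated starts. Its FPKM was 12.2, 42.9 and 24.8 in Shandong black cattle and 15.8, 36.3 and 67.4 in Luxi cattle. The breeds overlapped, and the log2 fold change was 0.50 (SE 0.60, 95% interval -0.90 to 1.91; limma adjusted p = 0.655). The CRYAB to HSPB2 ratio was between 101 and 541 in Shandong black cattle and between 29.3 and 34.9 in Luxi cattle.

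HSPB7, a small heat shock gene of heart and skeletal muscle that binds filamin, gave opposite signs depending on which transcripts were counted. It lies on chromosome 2 from 136054093 to 136057924, plus strand, with 1 annotated transcript. Its summed FPKM was 382, 129 and 230 in Shandong black cattle and 130, 143 and 274 in Luxi cattle. The breeds overlapped, and the log2 fold change was -0.38 (SE 0.49, 95% interval -1.53 to 0.76; limma adjusted p = 0.682). Assembled transcripts with an extended 5′ end were found in each Shandong black animal, 2 in B1 and 1 each in B2 and B3. They started 1817, 1672 and 1145 bases upstream of the annotated start in B1, B2 and B3 and carried 72.0%, 69.3% and 84.5% of that FPKM. No Luxi animal had such a transcript. The annotated transcript alone had 107, 39.5 and 35.6 FPKM in Shandong black cattle and 130, 143 and 274 in Luxi cattle, which do not overlap. On that measure the log2 fold change was 1.67 with a limma adjusted p of 0.143. The separation depends on how B1 was valued, since its transcript coverage was only 63.5% of the mean over the exons. By exon coverage per gigabase the breeds overlapped in exons 2 and 3, where B1 had 254 and 185.5. Requiring 80% of an assembled transcript's bases on the annotated exons gave 0.79, and leaving out B1 gave 0.00.

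**Figure D2:**
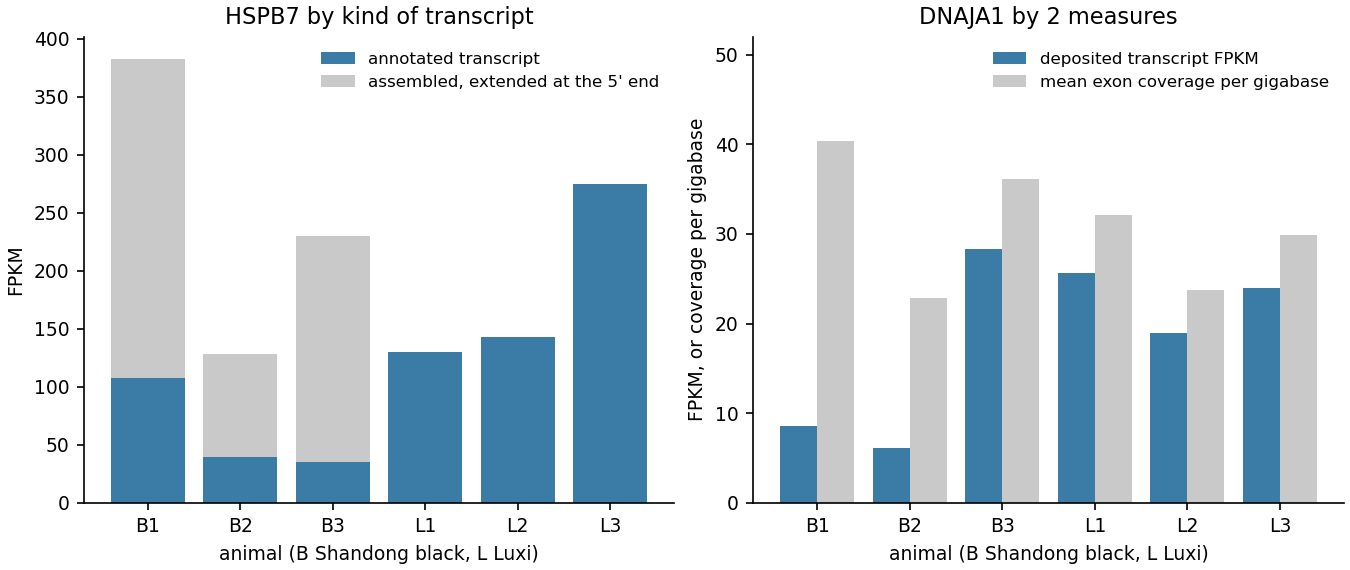
Left, HSPB7 FPKM (y axis) in each animal (x axis), split into the annotated transcript and assembled transcripts extended at the 5′ end, which carried 69.3% to 84.5% in the 3 Shandong black animals and nothing in the 3 Luxi animals. Right, DNAJA1 as the deposited transcript FPKM and as mean exon coverage per gigabase of aligned sequence (y axis). In B1 and B2 the first is 8.58 and 6.09 while the second is 40.3 and 22.8.

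The other small heat shock genes of the list, 4 tested of 6, included 0 called genes and had a median log2 fold change of -0.06. HSPB3, which is expressed with HSPB2 in muscle, had 30.6, 15.9 and 23.4 FPKM in Shandong black cattle and 10.8, 4.52 and 14.95 FPKM in Luxi cattle (log2 fold change -1.22, limma adjusted p = 0.156; -0.78 without L2). HSPB8, which works with BAG3 in the disposal of damaged filamin, had 569, 21.6 and 455 FPKM against 14.6, 297 and 439 FPKM. B2 and L1 stood far below the other 4 animals, and the log2 fold change of -0.51 had an interval of -4.25 to 3.23 (limma adjusted p = 0.878). With annotated transcripts valued by their mean exon coverage, B2 and L1 were at 38.69 and 47.65, and the log2 fold change was -0.24. In B2, 2 further assembled transcripts of 46.2 and 7.18 FPKM had 40.4% and 18.1% of their bases on HSPB8 exons and were not counted. CRYAA had no value, and HSPB9 was under the filter.

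HSPA8 and HSPA5 showed no difference between the breeds that stood out from their spread. HSPA8 encodes the constitutive HSP70 of the cytosol and lies on chromosome 15 from 33679011 to 33683436, minus strand. Its FPKM was 307, 258 and 292 in Shandong black cattle and 257, 382 and 437 in Luxi cattle. L1 lay beside the Shandong black animals and L2 and L3 above them. This gave a log2 fold change of 0.30 (SE 0.33, 95% interval -0.47 to 1.07; limma adjusted p = 0.628). HSPA5 encodes BiP, the HSP70 of the endoplasmic reticulum, and lies on chromosome 11 from 96115158 to 96119474, minus strand. Its FPKM was 47.7, 14.6 and 20.5 in Shandong black cattle and 16.1, 24.7 and 30.8 in Luxi cattle, with B1 the highest of all. This gave a log2 fold change of -0.08 (SE 0.45, 95% interval -1.13 to 0.98; limma adjusted p = 0.939). It was 0.40 without B1 and 0.17 without L1. HSPA8 stood 6.45 to 17.7 times above HSPA5 in the Shandong black animals and 14.2 to 16.0 times above it in the Luxi animals.

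In the list of other HSP70 and HSP110 genes, 11 of 13 were tested and 0 were called, with a median log2 fold change of 0.00. HSPA2, an HSP70 best known from the testis, had 51.4, 15.5 and 36.8 FPKM in Shandong black cattle and 8.42, 7.06 and 11.1 FPKM in Luxi cattle, without overlap (log2 fold change -1.72, limma adjusted p = 0.0814). HSPA4, an HSP110 nucleotide exchange factor, had 33.9, 15.2 and 24.6 FPKM against 10.51, 9.43 and 11.0 FPKM (log2 fold change -1.11, limma adjusted p = 0.0966). The stress-inducible HSPA1A, named here after its values were seen, had 381, 409 and 394 FPKM against 310, 537 and 1188 FPKM. L3 stood above the others, and the log2 fold change was 0.56 (limma adjusted p = 0.549). HSPA1A has near-identical copies in the genome and HSPA8 has processed copies, so reads may have been split among them and these values are uncertain to that extent.

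DNAJA1, a J protein of the cytosol that serves HSPA8, differed in sign between measures of its coverage. The gene lies on chromosome 8 from 74790616 to 74800322, plus strand. Its FPKM was 8.58, 6.09 and 28.4 in Shandong black cattle and 25.7, 18.9 and 23.9 in Luxi cattle. B1 and B2 were low and B3 was the highest of all animals, a 4.65-fold range within the breed, so the breeds overlapped. Luxi over Shandong black, the log2 fold change was 0.91 (SE 0.50, 95% interval -0.26 to 2.08; limma adjusted p = 0.331). Each file also gives the coverage of each exon, and the DNAJA1 transcript's own coverage was 21.3% and 26.7% of the mean over its exons in B1 and B2, beside 78.5% to 80.2% in the other 4 animals. From the mean exon coverage per gigabase the values became 40.3, 22.8 and 36.2 in Shandong black cattle and 32.2, 23.8 and 29.9 in Luxi cattle. On that measure the log2 fold change was -0.18 (limma adjusted p = 0.739). The main transcripts of the other 9 genes had between 98.0% and 101% of their mean exon coverage in every animal, apart from HSPB7 in B1 with 63.5%.

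DNAJA4, a J protein of the same class as DNAJA1, was lower in Luxi cattle and was the only called gene among the 104 tested genes of the chaperone network lists. Its FPKM was 118, 48.8 and 89.8 in Shandong black cattle and 19.2, 12.7 and 23.2 in Luxi cattle. The breeds did not overlap, and the log2 fold change was -2.11 (SE 0.38, 95% interval -3.01 to -1.22; limma adjusted p = 0.0392). The call was lost without B1, without B3, without L2 and without L3 (limma adjusted p between 0.0846 and 0.176), without a filter on FPKM (0.0957) and with annotated transcripts only (0.0508). Of the 16 tested genes among the 17 other J proteins, 1 was called and the median log2 fold change was -0.12. DNAJB12, a J protein of the endoplasmic reticulum membrane, was higher in every Luxi animal, with 3.83, 5.01 and 4.13 FPKM against 1.53, 1.34 and 2.57 FPKM (log2 fold change 0.94, limma adjusted p = 0.0615).

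Both cytosolic HSP90 genes were lower in every Luxi animal than in any Shandong black animal. HSP90AB1, the constitutive form, lies on chromosome 23 from 17752495 to 17758156, plus strand. Its FPKM was 189, 184 and 181 in Shandong black cattle and 81.1, 72.9 and 109 in Luxi cattle. The Shandong black values lay within a 1.04-fold range, the narrowest of the 10 genes, and the means were 185 ± 4.08 and 87.8 ± 19.1 (SD, n = 3 each), a 2.11-fold gap. The log2 fold change was -1.09 (SE 0.27, 95% interval -1.72 to -0.45), with a limma adjusted p of 0.0832. After quantile normalization it was 0.0429 and without a trend in the variance 0.0417, so the call depended on these settings. HSP90AA1, the inducible form, lies on chromosome 21 from 66939612 to 66944979, minus strand. Its FPKM was 197, 137 and 165 against 126, 87.3 and 101, and B2 and L1 were the nearest animals across the gap. For HSP90AA1 the log2 fold change was -0.66 (SE 0.29, 95% interval -1.34 to 0.01; limma adjusted p = 0.235).

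HSPA8 stood 1.62, 1.40 and 1.61 times above HSP90AB1 in the Shandong black animals and 3.18, 5.24 and 4.0 times above it in the Luxi animals, without overlap. The ratio of HSPA8 to DNAJA1 overlapped between the breeds. The ratio of HSP90AA1 to HSP90AB1 was 1.04, 0.742 and 0.911 against 1.55, 1.2 and 0.924, and these overlapped. The 2 HSP90 genes are similar in sequence, so reads that map to both may have moved between them. The ratios were chosen after the values were seen and were not tested.

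Of the other HSP90 genes, neither of the 2 tested was called. TRAP1, the mitochondrial HSP90, had 3.05, 4.17 and 5.42 FPKM in Shandong black cattle and 1.02, 2.52 and 3.02 FPKM in Luxi cattle (log2 fold change -0.74, limma adjusted p = 0.208; -0.44 without L1). With annotated transcripts valued by their mean exon coverage, TRAP1 was at 6.801, 5.811 and 6.844 against 2.205, 3.5 and 4.194. On that measure its log2 fold change was -0.825 (limma adjusted p = 0.0878). HSP90B1, the form of the endoplasmic reticulum, had 29.2, 9.79 and 22.4 FPKM against 28.0, 16.7 and 23.7 FPKM (log2 fold change 0.24, limma adjusted p = 0.763). Among the 21 HSP70 and HSP90 cochaperones, all tested, 0 were called and the median log2 fold change was 0.03. CDC37, which hands kinases to HSP90, was higher in every Luxi animal, with 13.5, 30.6 and 36.0 FPKM against 10.1, 9.22 and 10.1 FPKM (log2 fold change 1.25, limma adjusted p = 0.106). BAG3, the nucleotide exchange factor that links HSP70 to small heat shock proteins, had 218, 137 and 190 FPKM in Shandong black cattle and 54.5, 87.7 and 144 FPKM in Luxi cattle. L3 overlapped with B2, and the log2 fold change was -1.005 (limma adjusted p = 0.208), and -0.66 without L1.

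HSPD1, the HSP60 barrel of the mitochondrion, was at about the same level in L1 as in Shandong black cattle and lower in L2 and L3. The gene lies on chromosome 2 from 86035475 to 86045870, minus strand, with 4 annotated transcripts. Its FPKM was 21.7, 18.5 and 21.4 in Shandong black cattle and 19.5, 7.82 and 9.72 in Luxi cattle. The log2 fold change was -0.79 (SE 0.33, 95% interval -1.55 to -0.02; limma adjusted p = 0.218). Without L1, the Luxi animal nearest the Shandong black values, it was -1.15 with a limma adjusted p of 0.0226, which passes the threshold. Leaving out B2 as well, a choice made after seeing the data, gave -1.22 (limma adjusted p = 0.0284). Calls over all genes also rose in these fits, from 251 to 597 and 738. The log2 fold change was -0.54 without L2 and -0.68 without L3 (limma adjusted p = 0.402 for each). Leaving out any 1 Shandong black animal gave a limma adjusted p of 0.297 to 0.441. HSPE1 encodes the lid of the same barrel and lies head to head with HSPD1, with 152 bases between the annotated genes. Its FPKM was 31.5, 28.2 and 29.6 against 27.2, 20.6 and 22.4, without overlap (log2 fold change -0.34, limma adjusted p = 0.375). The HSPD1 to HSPE1 ratio was 0.658 to 0.724 in Shandong black cattle and in L1 was 0.717, while L2 and L3 had 0.380 and 0.433. HSPD1 has processed copies in the genome, so its values are uncertain to the extent that reads were shared with them.

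The 9 chaperonin and mitochondrial partner genes were all tested and 0 were called, with a median log2 fold change of -0.02. GRPEL2, a nucleotide exchange factor of mitochondrial HSP70, had 0.710, 0.477 and 0.971 FPKM in Shandong black cattle and 1.61, 1.42 and 1.17 FPKM in Luxi cattle (log2 fold change 0.48, limma adjusted p = 0.183). GRPEL2 passed the filter of 1 FPKM through its Luxi mean only, so a higher Luxi value was partly fixed by the filter. CLPP, a mitochondrial protease subunit, had 14.1, 19.0 and 16.6 FPKM against 3.38, 24.6 and 21.0 FPKM, with L1 far below the rest (log2 fold change -0.37, limma adjusted p = 0.770). With annotated transcripts valued by their mean exon coverage, CLPP in L1 was at 9.525, still the lowest, and the log2 fold change was 0.055. Among the 14 subunits of the cytosolic CCT ring and prefoldin, 0 were called and the median log2 fold change was -0.24. That median describes neither complex. The 8 genes below 0 were all ring subunits (-0.22 to -0.86), and the 6 above 0 were all prefoldin subunits (0.18 to 0.91). The breeds did not overlap for 6 of these 14 genes, with Luxi cattle lower for 5 (35.7%, beside 9.13% of all genes) and higher for 1. CCT5, a ring subunit, had 28.5, 26.4 and 27.6 FPKM in Shandong black cattle and 11.1, 14.8 and 19.4 FPKM in Luxi cattle (log2 fold change -0.86, limma adjusted p = 0.106). PFDN4, a prefoldin subunit, had 9.002, 4.50 and 5.94 FPKM against 12.4, 9.63 and 16.6 FPKM (log2 fold change 0.91, limma adjusted p = 0.134).

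The heat shock factors, the transcription factors of chaperone genes, were listed together with HSBP1, a protein that binds HSF1. Of this list 4 of 5 genes, HSBP1 among them, were tested and 0 were called, and the median log2 fold change was -0.45. HSF1, the main regulator of the heat shock response, had 54.0, 54.5 and 57.2 FPKM in Shandong black cattle and 17.2, 53.3 and 45.2 FPKM in Luxi cattle. Luxi animals were all lower, but L2 by only a little (log2 fold change -0.65, limma adjusted p = 0.393). Without L1 the value was -0.17. HSF2 had 27.6, 9.18 and 23.6 FPKM against 4.67, 4.99 and 6.50 FPKM, without overlap (log2 fold change -1.60, limma adjusted p = 0.0789). In the list of endoplasmic reticulum chaperones and the unfolded protein response, 18 of 20 genes were tested, 0 were called and the median log2 fold change was -0.13. SERPINH1, the collagen chaperone HSP47, was higher in every Luxi animal, with 30.3, 15.4 and 32.2 FPKM against 14.5, 9.12 and 13.3 FPKM (log2 fold change 0.97, limma adjusted p = 0.146). ERN1, the stress sensor IRE1, had 2.80, 1.79 and 1.88 FPKM against 1.07, 1.17 and 1.44 FPKM (log2 fold change 0.49, limma adjusted p = 0.180).

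The clients of small heat shock proteins and the genes that dispose of them were 9, all tested, and 0 were called. Their median log2 fold change was -0.51, with 8 of 9 below 0. FLNC encodes muscle filamin. It had 1066, 734 and 968 FPKM in Shandong black cattle and 166, 469 and 664 FPKM in Luxi cattle, without overlap (log2 fold change -1.29, limma adjusted p = 0.229; -0.71 without L1). DES, the gene of desmin, had 2571, 1249 and 1648 FPKM against 174, 1998 and 1253 FPKM. L1 was far below the other animals, and the log2 fold change was -1.20 (limma adjusted p = 0.459), but -0.14 without L1. With annotated transcripts valued by their mean exon coverage, DES in L1 was at 446.5, still the lowest, and the log2 fold change was -0.87. Across all network lists, 104 of 112 genes were tested, and 0 were called higher and 1 lower in Luxi cattle, where 1.54% and 1.02% of all tested genes were called. At an unadjusted limma p under 0.05 there were 22 of 104, against 21.8% of all genes. The breeds did not overlap for 22 genes that were lower in Luxi cattle (21.2% of 104, beside 9.13% of all genes) and for 13 that were higher (12.5%, beside 20%). The median log2 fold change of the network was -0.11, and -0.23 with size factors.

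**Figure D3:**
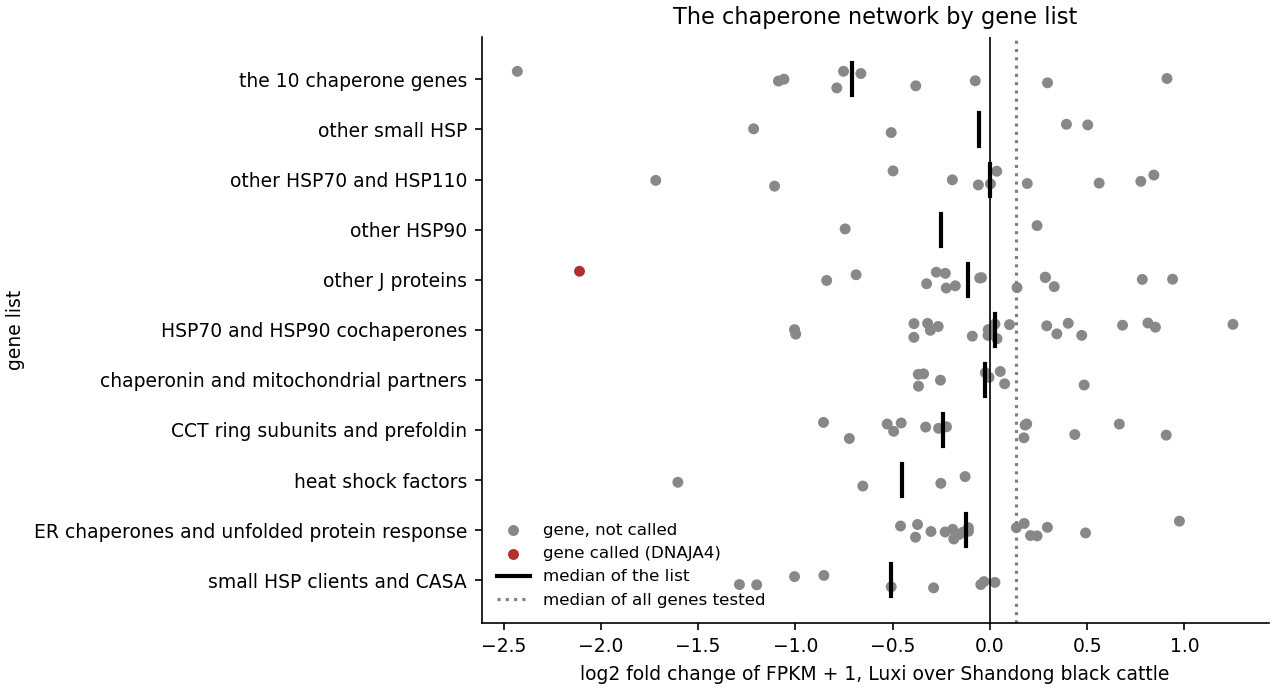
Log2 fold change, Luxi over Shandong black cattle (x axis), of the 10 chaperone genes and of each tested gene in 10 lists of the chaperone network (y axis). Black bars are list medians and the dotted line is the median of all tested genes, 0.13. DNAJA4 at -2.11 is the only called gene, and the 10 chaperone genes have the lowest median, -0.71.

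The exons of the genes showed whether a difference ran along the whole transcript. Coverage of each exon per gigabase of aligned sequence was compared for the most abundant annotated transcript. For CRYAB all 3 exons were lower in every Luxi animal, with log2 ratios of the means from -2.41 to -2.18. For HSP90AB1 all 12 exons were lower without overlap, from -1.57 to -1.001. For HSP90AA1 the means were lower in all 11 exons, from -1.04 to -0.44, and 8 of the 11 did not overlap. HSPD1 was lower in all 12 exons, from -1.38 to -0.57, with 6 of 12 not overlapping. Its most abundant transcript held 58.7% of the HSPD1 FPKM in L2 and 73.3% to 84.0% in the other animals. The exon values thus leave out more of the gene in L2. DNAJA1 was lower in 8 of 9 exons and higher, by 0.77, in the last one, and the breeds overlapped in all 9. HSPA8 was higher in 8 of 9 exons, from -0.03 to 0.54, and overlapped in all but the last. HSPB1 (-0.971 to -0.785) and HSPB6 (-1.201 to -0.425) were lower in all 3 exons, with 2 of 3 not overlapping for each. HSPA5 was lower in 8 of 9 exons, and all overlapped. HSPB7 was higher in Luxi cattle in all 3 exons, from 0.425 to 1.526, with 1 not overlapping. Its summed log2 fold change was -0.38, but the exon values cover the annotated transcript only. The number of exons is no number of replicates, since exons of a gene share its reads and animals.

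Coverage of the first exon relative to the last differed between the breeds for some small heat shock genes. For CRYAB the ratio was 1.34, 1.43 and 1.3 in Shandong black animals and 1.07, 1.15 and 1.18 in Luxi animals. For HSPB6 it was 1.13, 1.16 and 1.21 against 0.373, 0.758 and 0.728, with L1 the lowest. For HSPB1 it was 1.36, 1.07 and 1.43 against 0.709, 1.19 and 1.29, with overlap. The part of 5′ to 3′ coverage in the differences above was not tested.

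**Figure D4:**
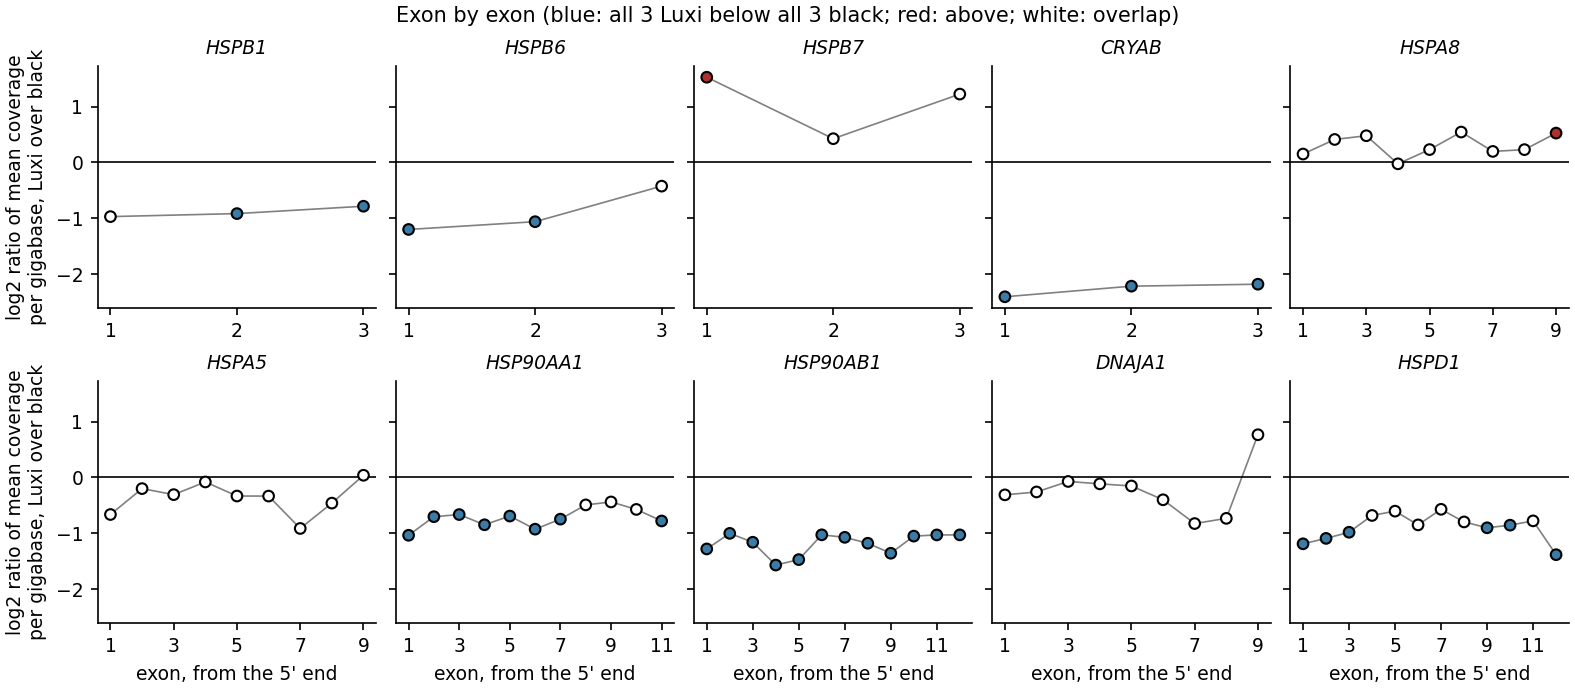
Log2 ratio of mean exon coverage per gigabase, Luxi over Shandong black cattle (y axis), by exon counted from the 5′ end (x axis), for each of the 10 genes. Filled points are exons in which the 3 Luxi and the 3 Shandong black animals do not overlap, and white points those in which they do. CRYAB (-2.41 to -2.18) and HSP90AB1 (-1.57 to -1.001) lie below 0 without overlap in each exon, while DNAJA1 crosses 0 at its last exon.

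The summed slow fibre, fat cell, fibroblast, endothelial and Schwann cell markers did not overlap between the breeds, while the summed fast fibre markers did. The 10 slow fibre markers summed to 32830, 26580 and 28740 FPKM in Shandong black animals and to 12980, 3431 and 13870 FPKM in Luxi animals. The 10 fast fibre markers summed to 2338, 5152 and 4294 FPKM against 4843, 27960 and 24250 FPKM. Slow markers thus made up 93.4%, 83.8% and 87.0% of both sums in Shandong black cattle and 72.8%, 10.9% and 36.4% in Luxi cattle. CRYAB was lowest in L1, the Luxi animal with the largest slow share, and HSPD1 was lowest in L2, the animal with the smallest. L1 also had the lowest sum of skeletal muscle markers, 26720 FPKM, and its slow sum was near that of L3. Whether these orders relate to the slow share was not tested. MYL2 alone held 24908 of the 32830 FPKM of the slow sum in B1. Of the 10 slow markers 1 was called lower, where 1.02% of all tested genes were. Without overlap, 5 of them were lower, beside 9.13% of all genes, and 1 was higher, MYL3, beside 20%. MYL3 had 13.1, 46.4 and 26.6 FPKM in Shandong black cattle and 1180, 63.5 and 244 FPKM in Luxi cattle. Of the 10 fast markers 0 were called by limma. There were 6 at an unadjusted limma p under 0.05, beside 21.8% of all genes, and 3 were higher without overlap, beside 20%. The 8 fat cell markers summed to 134 to 196 FPKM in Shandong black cattle and 13.2 to 37.8 FPKM in Luxi cattle. Of the 7 tested 5 were called lower, beside 1.02% of all genes. LEP, at most 0.0881 FPKM in Luxi cattle, passed the filter through its Shandong black mean only, so its lower Luxi value was partly fixed by the filter. The 6 fibroblast markers summed to 151 to 189 FPKM against 385 to 499 FPKM, with 1 called higher, beside 1.54% of all genes. None of the slow fibre, fast fibre, fat cell and fibroblast lists had a gene at 0 in every animal. Their part in the chaperone differences was not tested. In bulk muscle, fewer cells of a type and less RNA per cell cannot be told apart.

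Immediate early genes, which respond to stimuli within minutes, summed to 204 to 231 FPKM in Shandong black cattle and 114 to 342 FPKM in Luxi cattle. Of the 9 tested 0 were called by limma, 0 also at an unadjusted p under 0.05, and their median log2 fold change was -0.08. The red blood cell markers were near 0, with 3 of 6 genes without a value and a sum of at most 1.34 FPKM. Endothelial, mural, macrophage and Schwann cell lists had 0 called genes, with median log2 fold changes of 0.67, 0.20, -0.16 and -2.33 (1 gene tested in the last). The endothelial sum was 18.55 to 19.5 FPKM in Shandong black cattle and 22.22 to 61.57 FPKM in Luxi cattle. The Schwann cell sum was 47.73 to 119.9 FPKM against 7.582 to 27.37 FPKM, and S100B alone held 118 of the 119.9 FPKM in B1. The part of these sums in the chaperone differences was not tested.

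Exact permutation tests of each gene alone could not go below a two-sided p of 0.1 with 3 against 3 animals. CRYAB, HSPB1, HSP90AA1 and HSP90AB1 reached that exact p of 0.1. HSPD1 had an exact permutation p of 0.2 and HSPB6 of 0.3. HSPA8 and DNAJA1 had 0.4, HSPB7 had 0.7 and HSPA5 had 1. The median spread within a breed was larger for these 10 genes than for all tested genes. The median SD of log2(FPKM + 1) was 0.355 in Shandong black and 0.519 in Luxi cattle, beside 0.187 and 0.312 over all tested genes. This did not hold for each gene. HSP90AB1 was below the median of all tested genes in both breeds (0.0316 and 0.299). HSPA8 (0.129) and HSPD1 (0.12) were below it in Shandong black cattle, and DNAJA1 (0.22) and HSP90AA1 (0.262) in Luxi cattle.

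**Figure D5:**
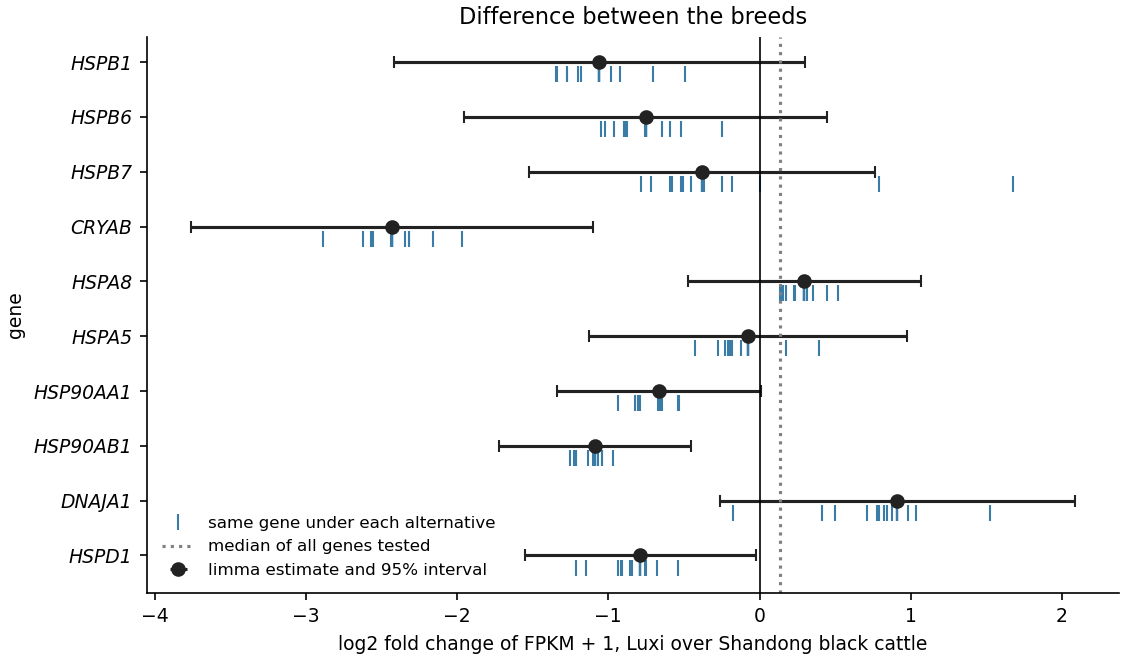
Log2 fold change, Luxi over Shandong black cattle (x axis), of each chaperone gene (y axis), with its 95% interval from limma (n = 3 animals each) and, as blue ticks, its value under each alternative. The interval lies fully below 0 for CRYAB, HSP90AB1 and HSPD1, and the ticks fall on both sides of 0 for HSPB7, HSPA5 and DNAJA1.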

How the data were processed

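RNA of 6 muscles was sequenced, and the deposited files hold transcripts assembled and quantified per animal by StringTie (version 1.3.3b per the file headers, with a stranded setting, although the kit named in the labels does not mark strand), as FPKM, TPM and coverage values computed by the authors. Reads had been trimmed with Fastp and aligned with HISAT to ARS-UCD1.2. Read counts were not analysed here, so the precision of each value at its depth is unknown and no count test was run. A gene's FPKM was the sum over its annotated transcripts plus any unnamed assembled transcript whose bases lay 50% or more on its exons, on its strand. Genes with a mean of at least 1 FPKM in a breed were tested with limma (3.58.1, R 4.3.3, eBayes with trend) on log2(FPKM + 1), which understates changes of low genes, and p-values were adjusted by Benjamini-Hochberg over all 9781 genes. The script was tested on simulated data. Two-sided exact permutation tests used scipy 1.17.1. P-values measure the spread between these 6 animals only. Chromosome numbers were taken by shared gene names from a RefSeq gene table of a later assembly, where all 10 symbols matched.

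The members and the gene lists were chosen with earlier results of these data known. Named are all 10 genes, each called gene of the chaperone network lists and the 2 genes of each list with the largest change. HSPB2, HSPE1 and HSPA1A were named beyond this rule, after their values were seen. The alternatives tried were another pseudocount and filter, TPM, size factors, quantile normalization, eBayes without trend, a replicate block, other rules for assembled transcripts, other fold limits and leaving out each animal. Leaving out B2 with L1, and valuing annotated transcripts by exon coverage, were added after seeing the data. No sequences are shown, since none was given for these genes.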

Additional observations from a re-analysis of the deposited data

How the results depend on the processing

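The count of 10 chaperone genes called was 0, and it became 1 with TPM, 2 with quantile normalization, 2 with eBayes without trend and 1 without B2 and L1 together. Leaving out 1 animal at a time gave 0 to 2. The count of other network genes called was 1, and it became 0 without a filter on FPKM, 2 with TPM, 3 with quantile normalization, 0 with annotated transcripts only and 8 without B2 and L1, and 0 to 5 when single animals were left out. Over all genes 251 were called, 151 higher and 100 lower. The count was 63 without a filter, 134 at a mean of at least 5 FPKM, 135 with the replicate block, 163 with annotated transcripts only, 67 at a log2 fold change of at least 2 and 738 without B2 and L1. Single animals left out gave 3 to 597, with 3 without B3, 10 without B1, 46 without L2, 89 without L3 and 597 without L1. With size factors the split was 113 higher and 139 lower, with quantile normalization 124 and 164, and with TPM 145 and 132. These shifts in the counts were computed and their cause was not tested.

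The log2 fold change of HSPB7 turned to 1.67 with annotated transcripts only and 0.79 at 80% of bases on the exons. With single animals left out it ran from -0.781 to 0.002 (without B1). HSPA5 ran from -0.427 to 0.395 in the same way, above 0 without B1 and, at 0.17, without L1. DNAJA1 turned to -0.18 with mean exon coverage. HSPB8 ran from -2.006 to 1.005 with single animals left out, HSP90B1 from -0.192 to 0.552 and CLPP from -0.83 to 0.445. Without B2 and L1, HSP90B1 was at -0.35 and CLPP at 0.54, and with mean exon coverage CLPP was at 0.055. The other 7 chaperone genes kept their sign in all 18 alternatives. The cause of these reversals was not tested beyond what the alternatives themselves change.

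Deviations from the breed means correlated weakly between animals with the same number, at 0.08, 0.09 and 0.07 for numbers 1, 2 and 3. For animals with different numbers the correlations ran from -0.107 to 0.00834. Such small values cannot settle whether the numbers pair the animals. Each animal correlated best with its own number. The deviations of the 3 animals of a breed sum to 0, so these correlations depend on each other and no pairing is concluded from their order. With the replicate block 0 of the 10 chaperone genes were called, as without it, and DNAJA4 was called with a limma adjusted p of 0.0407.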

Other observations

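Most of the 10 chaperone genes had assembled transcripts that the files place on the opposite strand over their exons, at a small share of the sense level. Whether the libraries kept strand is not settled, since the kit named in the labels does not mark it while the assembly was run with a stranded setting. If they did not, reads of these transcripts and of the genes themselves cannot be told apart, and the values below describe the files only. Summed over the 10 genes, transcripts placed antisense had 49.0, 37.9 and 42.3 FPKM in Shandong black cattle and 6.35, 15.4 and 15.8 FPKM in Luxi cattle, or 0.405%, 0.492% and 0.375% against 0.313%, 0.352% and 0.282% of the sense FPKM. HSPB1 alone had 31.4, 24.7 and 25.1 FPKM against 3.12, 9.94 and 8.29 FPKM. As a share of its sense FPKM that was 0.865%, 1.10% and 0.753% against 0.473%, 0.465% and 0.390%, without overlap. DNAJA1 had the largest share, between 3.29% and 41.9%, and in B1 and B2, where its sense transcript was valued low, the shares were 41.9% and 18.7%. Over CRYAB the share placed antisense was at most 0.0768%.

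Within Shandong black cattle, B1 had the highest value for 9 of the 10 chaperone genes and B2 the lowest for 9 of 10. Over all tested genes B1 was the highest of its breed for 39.3% and B2 the lowest for 44.9%. Within Luxi cattle L1 was the lowest for 6 of 10 and L2 for 4 of 10, beside 47.2% and 32.8% of all tested genes, and L3 was the highest for 6 of 10, beside 35.4%. A library's rank on 1 of these genes is not independent of its rank on the others.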
